A study of Mus musculus with 15 samples.

Results

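Transcripts of 10 genes that are widely used to mark pericytes (Mcam, Rgs4, Rgs5, Pdgfrb, Cspg4, Foxs1, Kcnj8, Abcc9, Tbx18 and Enpep) were followed in mouse embryonic fibroblasts that lacked the histone deacetylase HDAC1, had little Hdac2 RNA, or both. The genes are 10 of the 18193 gene symbols with a probe set of their own on the array. For each gene the probe set with the highest mean over the 15 arrays stood for the gene, and only probe sets annotated to that gene alone were considered. 8 of the 10 were bright enough to be tested among 13382 genes. The series asked how the loss of either enzyme, or of both, changes gene expression in primary fibroblasts. It comprises 15 Affymetrix mouse expression arrays of primary male cells in 5 groups of 3. Cells of 4 groups carried floxed Hdac1 and a retrovirus for Cre-ERT2, a Cre recombinase that becomes active with tamoxifen, plus a second retrovirus for a micro-RNA that was either scrambled or directed against Hdac2. Control cells had the scrambled micro-RNA and ethanol. Knockout (KO) cells had the scrambled micro-RNA and tamoxifen at 200 nM, knockdown (Kd) cells the micro-RNA against Hdac2 and ethanol, and the cells called "both" here the micro-RNA against Hdac2 and tamoxifen. The fifth group had intact Hdac1 (+/+) and received tamoxifen. Which viruses the +/+ cells carried, and the age of the embryos, are not given in the sources used here. KO and control cells therefore differed in tamoxifen as well as in Hdac1, and the +/+ cells differed from control cells in both tamoxifen and origin.

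Pericytes are mural cells that sit in the basement membrane of capillaries, where they steady the vessel wall and adjust its tone. They are recruited by platelet-derived growth factor from the endothelium, which acts on the receptor that Pdgfrb encodes. None of the 10 genes belongs to pericytes alone: fibroblasts, smooth muscle cells and other mesenchymal cells make many of these transcripts too, and embryonic fibroblast cultures are a mixed mesenchymal population. HDAC1 and its close relative HDAC2 take acetyl marks off histones as parts of shared repressor complexes, and each can often stand in for the other. In extracts of a whole culture, fewer cells of a type and less RNA per cell cannot be told apart.

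The promoters of 3 genes that rose most in cells with both losses (Mcam, Rgs4 and Rgs5) and of the gene that fell most (Enpep) are shown so that their base composition and common elements can be set against the values that follow. The sequences are the 250 bases before the RefSeq transcription start in mouse build GRCm38.p6, written 5′ to 3′ on the gene's own strand. Capitals mark any GC box (GGGCGG), E box (CANNTG), TATA element (TATAAA) or CCAAT element (CCAAT) on either strand. No marked element overlapped another.
Mcam, chr9:44134408-44134657, plus strand: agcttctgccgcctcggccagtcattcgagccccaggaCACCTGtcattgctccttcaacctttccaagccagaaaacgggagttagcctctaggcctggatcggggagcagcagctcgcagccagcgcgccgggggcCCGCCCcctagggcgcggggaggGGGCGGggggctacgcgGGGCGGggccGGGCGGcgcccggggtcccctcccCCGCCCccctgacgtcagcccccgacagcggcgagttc
Rgs4, chr1:169747643-169747892, minus strand: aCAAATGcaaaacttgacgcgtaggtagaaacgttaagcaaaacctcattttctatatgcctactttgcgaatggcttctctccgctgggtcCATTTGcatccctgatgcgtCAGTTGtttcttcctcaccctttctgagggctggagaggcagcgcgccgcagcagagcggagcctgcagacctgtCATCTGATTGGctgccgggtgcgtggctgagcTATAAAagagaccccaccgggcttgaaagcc
Rgs5, chr1:169655251-169655500, plus strand: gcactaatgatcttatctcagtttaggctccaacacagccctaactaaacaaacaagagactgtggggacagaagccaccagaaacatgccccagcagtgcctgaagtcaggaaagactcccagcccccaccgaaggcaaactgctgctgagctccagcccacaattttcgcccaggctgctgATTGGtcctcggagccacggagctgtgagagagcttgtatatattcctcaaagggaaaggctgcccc
Enpep, chr3:129332750-129332999, minus strand: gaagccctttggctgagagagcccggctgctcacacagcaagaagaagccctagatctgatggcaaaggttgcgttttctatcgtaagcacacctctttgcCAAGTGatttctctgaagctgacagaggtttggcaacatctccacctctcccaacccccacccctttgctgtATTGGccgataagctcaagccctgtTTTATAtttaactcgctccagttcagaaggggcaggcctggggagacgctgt
The Mcam promoter was 73.6% G and C, against a median of 52.4% over 32851 promoters, and held 5 GC boxes and 1 E box. The Rgs4 promoter, at 53.6% G and C, held 4 E boxes, 1 TATA element and 1 CCAAT element. Rgs5, the neighbour of Rgs4 on chromosome 1, had the same G and C content but only 1 CCAAT element, and Enpep had 1 E box, 1 TATA element and 1 CCAAT element. Of all promoters of this length, 32.7% held a GC box, 66.2% an E box, 12.4% a TATA element and 33.8% a CCAAT element. The CArG box, the element bound by serum response factor, was in 1.47% of promoters and in none of the 8 member promoters that were in the table. Among the other members, Cspg4 had 2 GC boxes, Abcc9 1 GC box and 1 E box, Kcnj8 1 E box, and Tbx18 1 E box and 1 CCAAT element. Mcam, Rgs4 and Rgs5 therefore shared no single element in these windows. Pdgfrb and Foxs1, which also rose with both losses, had no promoter in the table and could not be read. The elements found ranged from 12.4% (TATA element) to 66.2% (E box) of all promoters. Kcnj8 and Abcc9 also lie next to each other, on chromosome 6.

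The targeted genes matched the labels on every array. Hdac1 read 3498 to 3673 on the control arrays, 144 to 183 on KO arrays, 3757 to 3966 on Kd arrays, 106 to 203 on arrays with both losses and 4191 to 4806 on +/+ arrays. Hdac2 read 6536 to 7354 in control, 6492 to 7702 in KO, 908 to 1028 in Kd, 1013 to 1031 in both and 7471 to 7693 in +/+ cells. The median intensity of an array ran from 24.1 to 30.7 and was 29.1 to 30.7 on the arrays with both losses against 24.1 to 25.1 on the control arrays. Quantile normalization accordingly lowered the median difference of all genes between both and control by 0.19 (log2), and directions below are also given under it where they changed. No 2 arrays were identical. Over the 8 tested members, the second array of the both group (root mean square deviation from its group mean 0.29, log2) and the first control array (0.27) stood farthest from their groups. The labels do not say whether replicate arrays stem from separate cultures, so the p-values measure only the spread between these arrays, which may be technical.

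Mcam, which encodes the adhesion molecule CD146 of pericytes, smooth muscle and endothelium, rose in every altered group and most in cells with both losses. Its intensities were 372, 525 and 534 on the control arrays, 883.5, 1132 and 1062 on the KO arrays, and 1027, 1039.8 and 959 on the Kd arrays. Arrays with both losses read 3444, 3354 and 3738. Every array with both losses thus lay above every other array, and each control array lay below all others. The group means were 477 ± 90.9 in control, 1026 ± 128 in KO, 1008.5 ± 43.7 in Kd and 3512 ± 201 in both (SD, n = 3, as for all group means below). On the log2 scale of intensity plus 16, which is used for all differences here and which understates changes of dim genes, Mcam was 1.09 ± 0.12 (SE) higher in KO than in control cells (adjusted p = 1.48e-05, limma with Benjamini-Hochberg adjustment over all genes, as throughout). It was 1.07 higher in Kd cells (adjusted p = 2.06e-05) and 2.85 higher with both losses (adjusted p = 7.37e-12), a 7.23-fold difference. The +/+ cells, with intact Hdac1, read 781, 891 and 963, which was 0.87 above control (adjusted p = 7.21e-05). KO, Kd and +/+ arrays overlapped one another in the order of levels, and KO minus +/+ was 0.22 (95% interval -0.04 to 0.48, adjusted p = 0.231).

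**Figure D1:**
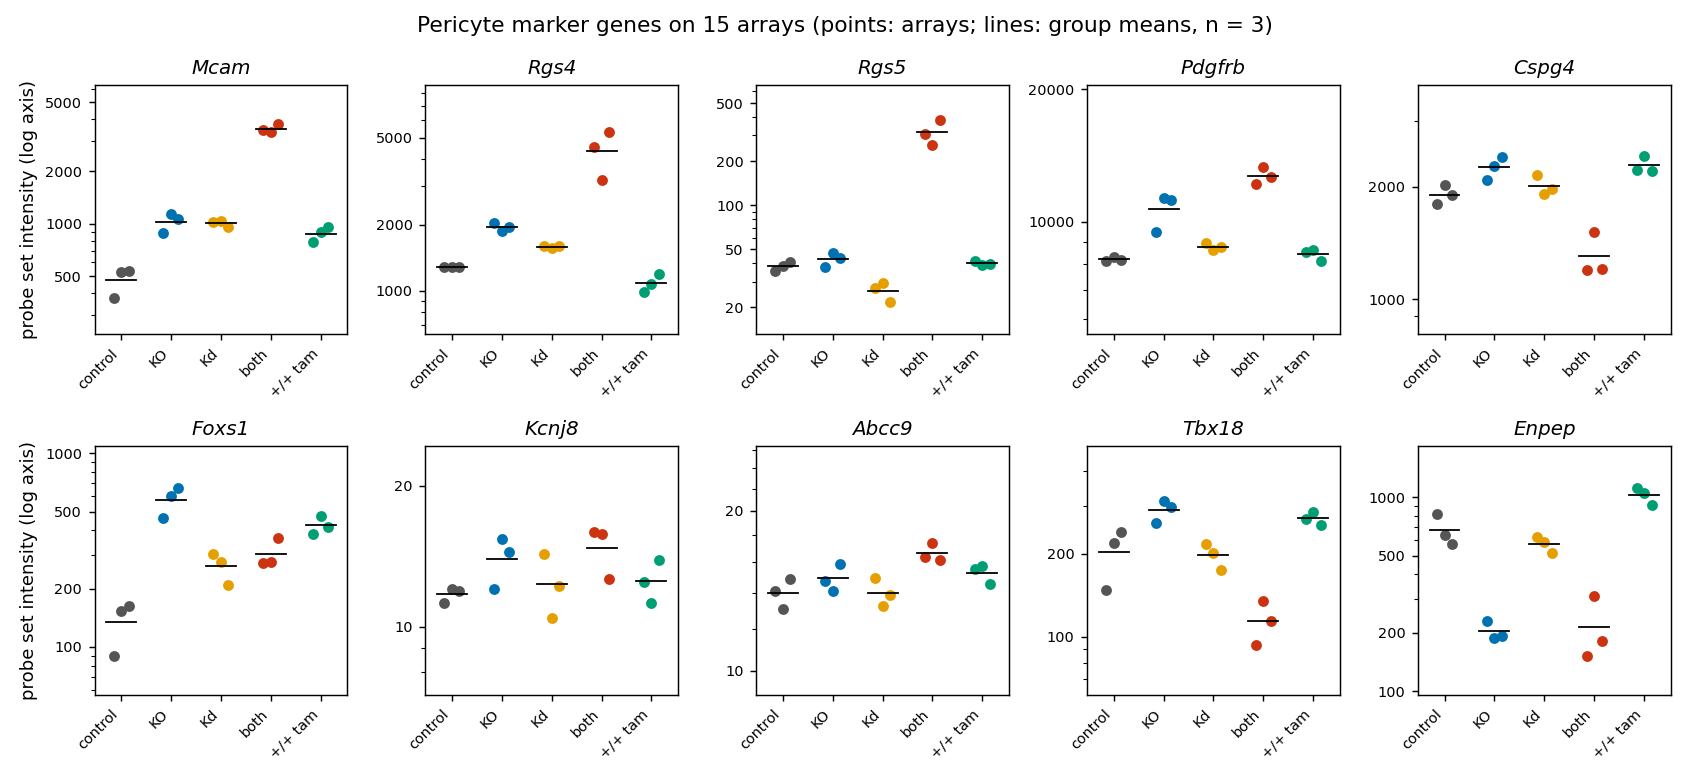
Probe set intensity (vertical log axes, 1 panel per gene with its own range) of the 10 genes on the 15 arrays; points are arrays, lines are group means, and the groups from left to right are control, KO, Kd, both and +/+ with tamoxifen. The arrays with both losses lie above all others for Mcam, Rgs4, Rgs5 and Pdgfrb and below all others for Cspg4 and Tbx18, while Kcnj8 and Abcc9 stay under 18 on every array.

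Pdgfrb encodes the receptor tyrosine kinase through which pericytes are recruited, and it was bright on all 15 arrays. The control arrays read 8156, 8326 and 8188, KO arrays 9479, 11329 and 11224, Kd arrays 8921, 8619 and 8742, and arrays with both losses 12180.1, 13294 and 12634. KO arrays lay above all control, Kd and +/+ arrays, and arrays with both losses lay above the KO arrays. The rise was small in fold terms: 0.37 ± 0.07 in KO against control (adjusted p = 0.00127) and 0.63 ± 0.07 with both losses (adjusted p = 8.46e-07), or 0.41 for the latter after quantile normalization. In Kd cells the difference was 0.09 (95% interval -0.06 to 0.24, adjusted p = 0.508). The +/+ arrays (8524, 8623 and 8139) overlapped the control arrays, with a difference of 0.04 (adjusted p = 0.763) that was -0.07 after quantile normalization. Pdgfrb was 0.34 higher in KO than in +/+ cells (adjusted p = 0.00237), so KO cells stood above both groups with intact enzyme. The difference of 0.25 between both and KO (adjusted p = 0.00581) was 0.15 after quantile normalization and missed the threshold when only the 6 arrays compared were in the fit (adjusted p = 0.0558).

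Cspg4, which encodes the membrane proteoglycan NG2, went the other way from Pdgfrb in cells with both losses. Control arrays read 1796, 2024 and 1895, KO arrays 2087, 2270.3 and 2408, Kd arrays 2149.6, 1911 and 1975, and +/+ arrays 2222.5, 2409 and 2206. The arrays with both losses read 1195, 1509 and 1203 and lay below every other array. The other 4 groups formed a continuous order of means, from control through Kd and KO to +/+, in which each group overlapped its neighbour. With both losses Cspg4 fell by 0.55 ± 0.09 against control (adjusted p = 5.51e-05), a 1.46-fold lower intensity, and was -0.79 against KO (adjusted p = 1.43e-06). The KO difference from control was 0.24 (95% interval 0.05 to 0.43, adjusted p = 0.0671) and the Kd difference 0.08 (-0.12 to 0.27, adjusted p = 0.691). Neither passed the threshold.

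Rgs4 and Rgs5 encode regulators of G protein signalling, proteins that speed the shutdown of signals from G protein-coupled receptors. They differed in how they responded to the single losses. Rgs4 read 1289, 1291 and 1284 on the control arrays, 2034, 1877 and 1959.7 in KO, 1597, 1570.4 and 1598.5 in Kd, and 4519.7, 3189.9 and 5333 with both losses. The 5 groups did not overlap: +/+ arrays were lowest (988.5, 1077.5 and 1196), followed by control, Kd, KO and both. Rgs4 rose by 0.60 ± 0.13 in KO (adjusted p = 0.00313) and by 1.71 ± 0.13 with both losses (adjusted p = 6.02e-09), a 3.27-fold difference. The Kd difference of 0.30 missed the threshold (adjusted p = 0.175) although no Kd array overlapped a control array. It passed when only control and Kd arrays were in the fit (adjusted p = 0.0052). The spread was widest in the both group, where the second array was lowest (group mean 4348 ± 1082).

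Rgs5, the classic marker of brain pericytes, was dim in all groups but one. Control arrays read 35.6, 38.3 and 40.9, KO arrays 38.0, 46.8 and 43.2, and +/+ arrays 41.7, 38.8 and 39.3. These 3 groups overlapped. With both losses the arrays read 309, 258 and 384, so that the dimmest was several times above the brightest array of any other group. Against control the difference was 2.60 ± 0.11 (adjusted p = 6.32e-12), which is 6.07-fold on the scale with 16 added. In KO cells it was 0.11 (95% interval -0.12 to 0.35, adjusted p = 0.511). Kd arrays read 27.0, 29.5 and 21.7, below all other arrays. That fall of 0.37 was called (adjusted p = 0.0425) but lost without the filter on dim genes (adjusted p = 0.0556) and without any 1 of the 3 control arrays or of the first and the third Kd arrays (adjusted p = 0.0656 to 0.178). Over all 17 alternatives run, the call was lost in 8 and the Kd difference ran from -0.54 to -0.18. The lowest Rgs5 value was 1.13 times the 40th percentile of its array, so Rgs5 lay close to the filter outside the both group.

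Foxs1 encodes a forkhead transcription factor found in perivascular cells, and of the members it had the largest rise in KO cells. The control arrays read 89.4, 154 and 162 and lay below all others. KO arrays read 463, 601 and 662, Kd arrays 301, 275.5 and 209, arrays with both losses 271, 276 and 364.5, and +/+ arrays 384, 475 and 416. In order of means, Kd and both overlapped, as did +/+ and KO, while both and +/+ did not. Foxs1 was 1.99 ± 0.19 above control in KO (adjusted p = 2.37e-06), 0.90 in Kd (adjusted p = 0.00477), 1.11 with both losses (adjusted p = 7.05e-05) and 1.58 in +/+ cells (adjusted p = 1.25e-05). The highest groups, KO and +/+, had both received tamoxifen, as had the both group. KO minus +/+ was 0.41 (95% interval 0.01 to 0.81, adjusted p = 0.131). Foxs1 was lower where Hdac2 was also reduced: both minus KO was -0.88 (adjusted p = 7.19e-04).

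Tbx18 encodes a T-box transcription factor of the mural and epicardial lineages. Its control arrays read 148, 220.1 and 239.7, with the first far below the others, KO arrays 258, 311 and 296.5, and +/+ arrays 268, 285 and 256. Kd arrays (217, 202 and 174) overlapped control. Arrays with both losses read 93.4, 135 and 114, below every other array. Tbx18 fell by 0.73 ± 0.15 with both losses (adjusted p = 3.13e-04) and was -1.23 against KO (adjusted p = 1.83e-06). Its rise in KO cells was 0.50 ± 0.15 (adjusted p = 0.0199). That call was lost with array weights (0.41, adjusted p = 0.285), after quantile normalization (0.37, adjusted p = 0.0658), without the first control array (0.31, adjusted p = 0.104) and without the second or the third KO array (adjusted p = 0.0765 and 0.0642). The Kd difference was -0.01 (95% interval -0.32 to 0.30).

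Enpep encodes aminopeptidase A, a membrane enzyme that cleaves angiotensin II, and was the member that fell with Hdac1 deletion. Control arrays read 822, 642 and 576, KO arrays 230.5, 188 and 193, Kd arrays 622.5, 589.7 and 514, and arrays with both losses 151, 311 and 182. Both groups without Hdac1 lay below all 9 arrays with intact Hdac1 and overlapped each other. Against control Enpep fell by 1.65 ± 0.19 in KO (adjusted p = 1.51e-05, 3.14-fold) and by 1.64 ± 0.19 with both losses (adjusted p = 9.26e-07). The Kd difference was -0.22 (95% interval -0.62 to 0.17, adjusted p = 0.546). Between both and KO the difference was 0.01, with a 95% interval of -0.38 to 0.41, and -0.27 without the second array of the both group, where Enpep read 311. The +/+ arrays were highest of all (1115, 1058 and 914). KO minus +/+ was therefore larger than KO minus control, at -2.25 (adjusted p = 2.07e-07).

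Kcnj8 and Abcc9 encode the pore and the regulatory subunit of the ATP-sensitive potassium channel of vascular mural cells. Neither was above the 40th percentile of any of the 15 arrays, so neither was tested. Kcnj8 ranged from 10.4 to 15.9 and Abcc9 from 13.1 to 17.4. Kcnj8 read 11.2, 12.0 and 11.9 in control and 15.9, 15.7 and 12.6 with both losses. Without the filter Abcc9 was 0.12 higher in both than in control (adjusted p = 0.0439) and Kcnj8 0.15 higher (adjusted p = 0.073), differences of a few intensity units at the dimmest end of the array. The other 2 Abcc9 probe sets were dim as well, at 8.62 to 17.3. These values say nothing of a level of the channel in any group.

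**Figure D2:**
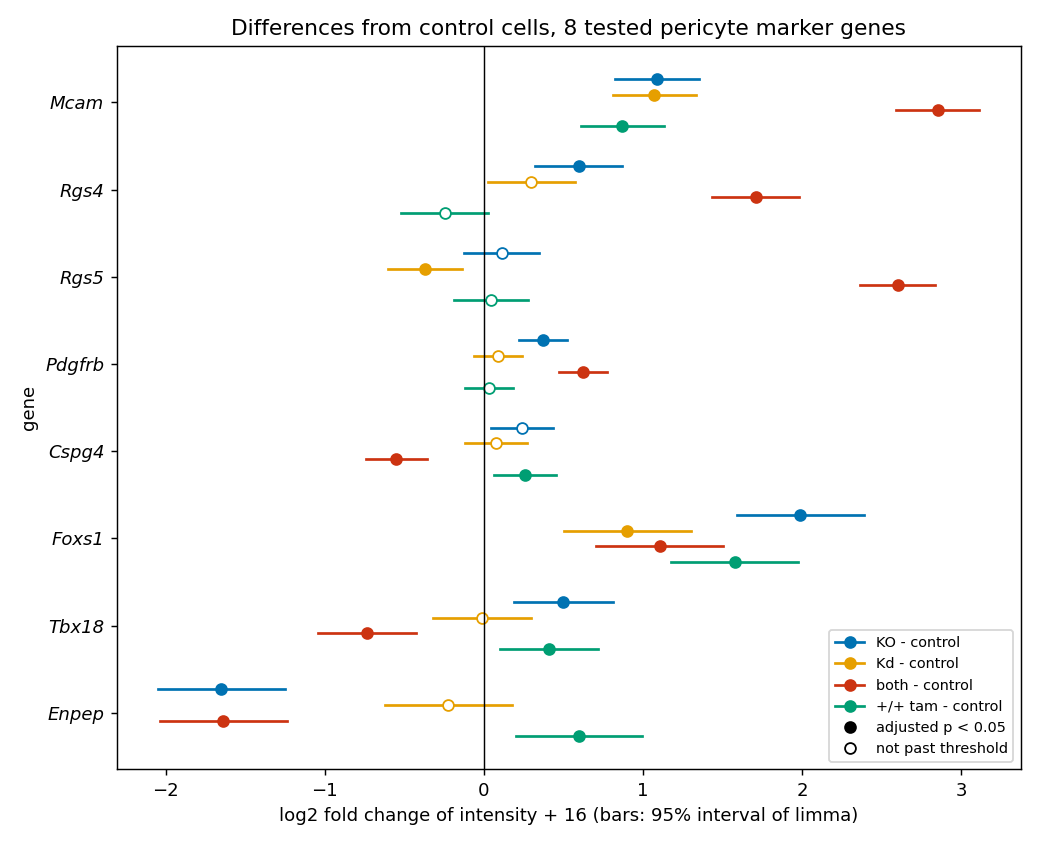
Difference of KO, Kd, both and +/+ cells from control cells (horizontal axis, log2 of intensity plus 16) for the 8 tested genes; points are limma estimates, bars 95% intervals, and filled points have an adjusted p under 0.05. Points for cells with both losses lie to the right for Mcam, Rgs4, Rgs5, Pdgfrb and Foxs1 and to the left for Cspg4, Tbx18 and Enpep.

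With both losses all 8 tested members passed the threshold, 5 higher and 3 lower, but so did 65.5% of the 13382 genes (46.2% higher, 19.3% lower). A call was thus the usual outcome for a gene in this comparison. In KO cells 5 members rose (Mcam, Rgs4, Pdgfrb, Foxs1 and Tbx18) and 1 fell (Enpep), where 19.6% and 4.66% of all genes did (24.2% in all). In Kd cells 2 rose (Mcam and Foxs1) and 1 fell (Rgs5), against 7.55% and 3.04% (10.6% in all). The medians over the 8 members were 0.44 in KO, 0.08 in Kd and 0.87 in both, beside 0.08, 0.04 and 0.16 over all genes tested. Between both and KO, 4 members were higher and 3 lower (36.2% and 20.6% of all genes, 56.8% in all), and between both and Kd also 4 and 3 (42.9% and 20.5%, 63.4% in all). These comparisons share arrays and are not independent of each other. The split of all genes depended on scaling: for KO minus control it was 2617 higher and 623 lower as deposited and 1873 and 1933 after quantile normalization, for both minus control 6181 and 2585 against 4322 and 4466, and for Kd minus control 1010 and 407 against 1113 and 976. For both minus KO it was 4842 and 2762 against 4028 and 4175, and for both minus Kd 5742 and 2737 against 4198 and 4367.

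Whether the 2 losses combined additively was asked with the interaction term. That term is both minus Kd less KO minus control, and within it tamoxifen against ethanol went with deleted against intact Hdac1. It passed for 6 of the 8 members, 3 above and 3 below 0, where 25.8% of all genes were above and 17.2% below, 43.0% in all (3453 and 2296 genes as deposited, 3233 and 3455 after quantile normalization). Rgs5 departed farthest: the single differences summed to -0.26, the measured difference with both losses was 2.60, and the interaction was 2.86 ± 0.16 (adjusted p = 8.37e-10). Mcam and Rgs4 rose more than their single differences added up to. For Mcam the sum was 2.16 against 2.85 measured (interaction 0.69 ± 0.17, adjusted p = 0.00405), and for Rgs4 0.90 against 1.71 (0.82 ± 0.18, adjusted p = 0.00175). Foxs1, Tbx18 and Cspg4 went below the sum. Foxs1 summed to 2.89 and measured 1.11 (-1.79 ± 0.27, adjusted p = 4.77e-05). Tbx18 summed to 0.49 and measured -0.73 (-1.22 ± 0.21, adjusted p = 1.51e-04), and Cspg4 to 0.32 and -0.55 (-0.87 ± 0.13, adjusted p = 4.66e-05), so both changed side. For Pdgfrb the interaction was 0.16 (95% interval -0.05 to 0.38, adjusted p = 0.215) and for Enpep 0.24 (-0.32 to 0.80, adjusted p = 0.511). These intervals allow a departure in either direction.

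**Figure D3:**
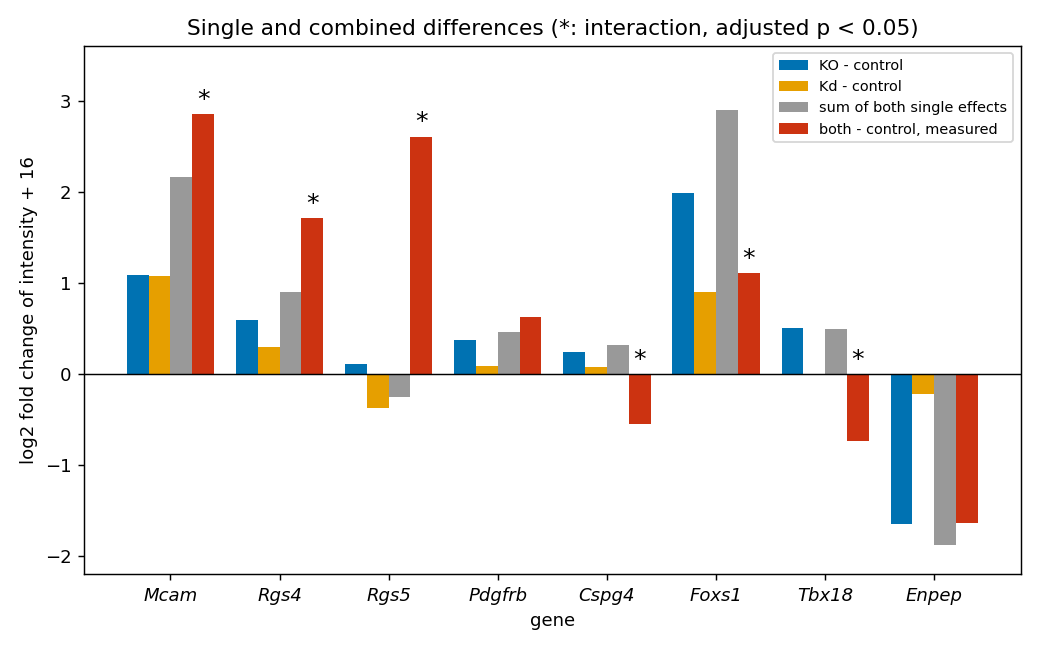
Difference from control (vertical axis, log2 of intensity plus 16) in KO and Kd cells, the sum of both, and the measured difference in cells with both losses, for the 8 tested genes; a star marks an interaction with adjusted p under 0.05. Among the genes with a star, the measured bar lies above the sum for Mcam, Rgs4 and Rgs5 and below it for Foxs1, Cspg4 and Tbx18. The measured bar and the sum have opposite signs for Rgs5, Cspg4 and Tbx18.

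The +/+ cells give a comparison in which KO and +/+ cells both received tamoxifen. Against control cells 5 members were higher in +/+ cells and 0 lower, where 21.5% and 6.93% of all genes were, 28.5% in all (2883 and 928 genes, or 1945 and 2011 after quantile normalization). At an unadjusted p under 0.05 by limma the counts were also 5 and 0. Only the calls of Mcam and Foxs1 held under all alternatives run. Those of Cspg4 (0.26, adjusted p = 0.0454), Tbx18 (0.41, adjusted p = 0.0451) and Enpep (0.60, adjusted p = 0.0255) were lost after quantile normalization (adjusted p = 0.131, 0.154 and 0.0818). They were also lost without single arrays: Cspg4 without the first or the third control array or any +/+ array, Tbx18 without the first control array or any +/+ array, and Enpep without the second or the third control array or the first or second +/+ array (adjusted p = 0.0638 to 0.236). KO cells differed from +/+ cells in 3 members: Rgs4 (0.84, adjusted p = 1.50e-04) and Pdgfrb were higher and Enpep was lower, against 12.8% and 11.3% of all genes (24.1% in all). That split moved with single KO arrays, from 1711 higher and 1516 lower genes to 2047 and 975 without the first and 1296 and 2289 without the third. Rises of Mcam, Foxs1 and Tbx18 in KO over control thus had no counterpart past the threshold against +/+ cells (Tbx18 0.09, 95% interval -0.22 to 0.40). Cells with both losses differed from +/+ cells in all 8 members, 4 higher (Mcam 1.98, Rgs4 1.96, Rgs5 2.56 and Pdgfrb 0.59) and 4 lower (Enpep -2.23, Tbx18 -1.14, Cspg4 -0.81 and Foxs1 -0.47), where 38.3% and 23.5% of genes were, 61.8% in all (5124 and 3143 genes, or 4273 and 4377 after quantile normalization). The Foxs1 call (adjusted p = 0.039) was lost without the first or second array of the both group, without the second or the third +/+ array, with a pseudocount of 1 and without the filter (adjusted p = 0.0539 to 0.129).

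Rgs4, Rgs5, Pdgfrb, Cspg4 and Tbx18 had more than 1 probe set above the filter. For Rgs4 the other 2 probe sets gave 1.87 and 1.89 for both minus control, close to 1.71 for the chosen one. For Rgs5 the 2 dimmer probe sets gave 1.34 and 0.85 where the chosen one gave 2.60, and a probe set at 11.8 to 17.4 was not tested. The mean over the Rgs5 probe sets was 1.60, and the interaction was then 1.72. The direction was common to the 3 tested Rgs5 probe sets, and the size was not. The second Pdgfrb probe set gave 0.22 in KO (adjusted p = 0.0677) and 0.51 with both losses (adjusted p = 4.68e-05), and the second Cspg4 probe set -0.56 with both losses (adjusted p = 0.00329). The probe sets of Tbx18 disagreed: the dimmer one gave -0.27 with both losses (adjusted p = 0.113), 0.13 in KO and 0.50 in +/+ cells (adjusted p = 0.0173), so the fall of Tbx18 against control rests on 1 of 2 probe sets. Its interaction passed in both, at -1.22 and -0.59 (adjusted p = 0.03 for the latter).

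**Figure D4:**
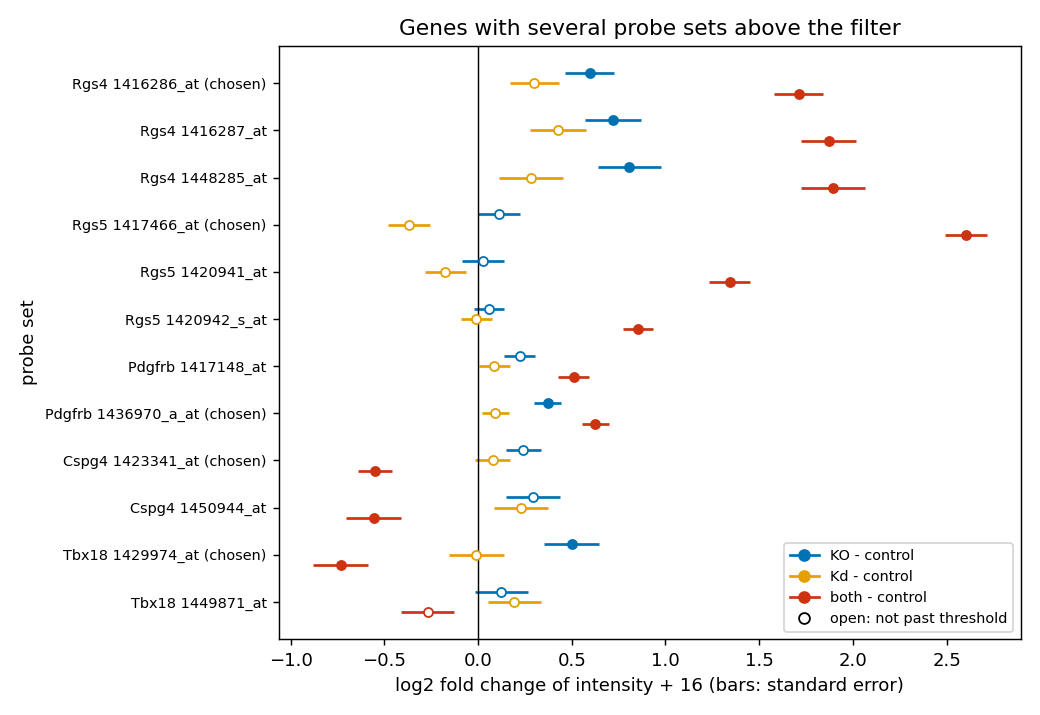
Difference of KO, Kd and both from control cells (horizontal axis, log2 of intensity plus 16) for each probe set above the filter of genes with several such probe sets; bars are standard errors, and filled points have an adjusted p under 0.05 in a fit over all probe sets, so that a call can differ from that over genes. Differences with both losses are alike for the Rgs4 and the Cspg4 probe sets, run from 0.85 to 2.60 for Rgs5, and are -0.73 and -0.27 for Tbx18.

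Other genes of the same cells and pathways were counted from lists, which were chosen with earlier results of these data known. Their counts stand beside shares of all genes called of 65.5% with both losses (46.2% higher, 19.3% lower), 24.2% in KO (19.6% and 4.66%), 10.6% in Kd (7.55% and 3.04%) and 28.5% in +/+ cells (21.5% and 6.93%). Of 28 other mural cell genes 15 were bright enough to test, and with both losses 9 rose and 2 fell (7 and 3 after quantile normalization), a share near that of all genes. The median was 0.33, and 0.09 after quantile normalization and 0.16 after median centring. Notch3, the Notch receptor of vascular mural cells, went from 25.9 ± 6.16 to 1961 ± 154, a difference of 5.57 ± 0.12 (adjusted p = 2.63e-15). That probe set can bind several transcripts, and the Notch3 probe set without this property gave 3.79 with both losses and 0.21 in KO (adjusted p = 0.176), where the first had given 1.30. Epas1, a hypoxia-inducible factor, was 2.51 higher, Anpep, which encodes the aminopeptidase CD13, 1.70, and Angpt1, a ligand of the endothelial receptor Tie2, 1.63. Vtn, Higd1b, Ndufa4l2, Cox4i2, Atp13a5 and Heyl, further pericyte genes of that list, did not pass the filter. All 17 smooth muscle genes were tested, and with both losses 15 rose and 1 fell (13 and 1 after quantile normalization), with a median of 0.60 (0.38 after quantile normalization). The integrin Itga8 (345 ± 37.6 to 3048 ± 866, difference 3.05), Synpo2 (2.26), Lmod1 (1.18) and the smooth muscle myosin Myh11 (1.15) led. In KO cells 5 mural genes rose and 0 fell (5 and 1 by limma at an unadjusted p under 0.05), and 11 smooth muscle genes rose and 0 fell (11 and 0 unadjusted, 8 and 0 after quantile normalization). In Kd cells 1 mural gene rose and 2 fell, and 5 smooth muscle genes rose and 0 fell (6 and 1 unadjusted). In +/+ cells 1 mural gene rose and 7 fell, led by Epas1 at -2.43. For Epas1, +/+ and KO cells thus stood on opposite sides of control (KO 1.53). Of the smooth muscle genes 4 rose and 1 fell in +/+ cells (4 and 3 after quantile normalization). Set against +/+ cells, KO cells had 6 smooth muscle genes higher and 2 lower (8 and 2 after quantile normalization). Of all genes, 12.8% were higher and 11.3% lower in that comparison.

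Around Pdgfrb, 14 genes of platelet-derived growth factor signalling (ligands, receptors and downstream enzymes) were tested. With both losses 14 rose and 0 fell by limma (14 and 0 at an unadjusted p under 0.05, 10 and 0 after quantile normalization), with a median of 0.70 (0.48 after quantile normalization) beside 0.16 over all genes. The ligand Pdgfd rose from 42.0 ± 6.16 to 874 ± 84.6 (3.94), the receptor-like gene Pdgfrl from 55.2 ± 1.53 to 983 ± 82.1 (3.81), and the signalling enzymes Plcg1 and Pik3r1 by 1.57 and 1.44. In KO cells 6 rose and 1 fell (4 and 1 after quantile normalization, 3 and 1 after median centring). In Kd cells 4 rose and 0 fell (4 and 1 unadjusted, 3 and 1 after quantile normalization). In +/+ cells 10 rose and 0 fell (11 and 0 unadjusted, 8 and 0 after quantile normalization, 7 and 0 after median centring). The gene that fell in KO cells was the related receptor Pdgfra (1138 ± 73.7 to 689 ± 32.9), where Pdgfrb rose. Among 11 tested of 19 other RGS genes, 4 rose and 1 fell with both losses, fewer than the share of all genes, and the median was 0.08. After quantile normalization 2 rose and 4 fell, and the median was -0.07. Rgs10 (1.03) and Rgs17 (0.79) were the highest and Rgs2 was the lowest (-0.88). Thus no direction was common to the family, and with both losses Rgs4 and Rgs5 had larger differences than the 11 other RGS genes tested. Of 8 tested genes of the renin-angiotensin system besides Enpep, 4 rose and 0 fell with both losses (5 and 0 at an unadjusted p under 0.05 by limma, 3 and 2 after quantile normalization), with Anpep and the renin receptor gene Atp6ap2 (1.40) highest. That share was near that of all genes. In KO cells the peptidase gene Mme fell by 1.20, alongside Enpep, and Atp6ap2 rose by 0.52. Mme differed from Enpep in cells with both losses, where it read 2779 ± 80.9 against 2837 ± 184 in control. In Kd cells Mme was called lower as well, at 1599 ± 154, and Enpep was not called. Of 6 tested relatives of the potassium channel genes 3 rose and 0 fell with both losses (3 and 0 unadjusted, 2 and 2 after quantile normalization), with Kcnj15 (1.18) and Kcnj4 (0.70) highest, again near the share of all genes.

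Markers of other cell types were read beside these results, as sums over the genes of a list that passed the filter. The sum over 12 of 13 fibroblast genes ran from 100457 to 119671 across the 15 arrays. It was set by a few very bright genes, and single genes moved far. With both losses Dcn went from 22.4 ± 2.60 to 3979 ± 353, Col3a1 from 15625 ± 920 to 29894 ± 1434 and S100a4 from 20642 ± 267 to 948 ± 180.2. Of the 12 genes 8 rose and 3 fell with both losses, or 5 and 3 after quantile normalization and after median centring. Over all genes 46.2% rose and 19.3% fell in that comparison. Fap, at 13.3 ± 1.35, and Lum, at 19.2 ± 4.62, were dim in control cells. The sum over 5 of 15 endothelial genes was 362 to 401 on control arrays and 1075 to 1289 on arrays with both losses, the same arrays where Mcam, an endothelial gene too, was highest. Flt1, a receptor for vascular endothelial growth factor, made up most of that rise (194 ± 15.4 to 783 ± 88.4), while Pecam1, Cdh5, Tek, Tie1, Vwf, Emcn, Cldn5, Sox17, Sox18 and Robo4 did not pass the filter. The sum over 3 of 6 mesothelial genes was almost all the keratin Krt19 (341 ± 50.6 in control, 675 ± 89.1 in KO and 223 ± 29.5 with both losses). It ran from 329 to 426 in control, 633 to 819 in KO, 500 to 624 in Kd, 520 to 695 in +/+ and 251 to 300 with both losses, while Upk1b, Wt1 and Lrrn4 did not pass the filter. Upk3b went the other way with both losses (13.1 ± 1.01 to 30.6 ± 5.68). Msln read 27.8 ± 3.38 in control, 25.7 ± 3.26 in KO and 21.7 ± 1.80 with both losses, where it was called lower. The sum over 4 of 8 skeletal muscle genes was 1877 to 2291 in control, 2869 to 3492 in KO and 283 to 416 with both losses, and almost all of it was the actin gene Acta1 (2051 ± 216 in control, 265 ± 81.5 with both losses). The muscle genes Actc1 (17.7 ± 2.03 to 46.6 ± 5.05) and Myog (18.7 ± 0.84 to 35.2 ± 6.80) read higher with both losses, and Myod1, Myf5, Pax7 and Ckm did not pass the filter. The sum over 5 of 10 macrophage genes ran from 160 to 197 in control, 219 to 308 in KO and 179 to 259 with both losses. It was 169 to 181 in Kd and 201 to 255 in +/+ cells. The only macrophage gene called in KO cells was Csf1r (88.0 ± 14.3 in control and 176 ± 51.8 in KO). Cd68 read 30.5 ± 5.32 in control and 30.2 ± 5.34 in KO, and Ptprc, Itgam, Tyrobp, Fcer1g and C1qa did not pass the filter. The sum over 3 of 8 Schwann cell and melanocyte genes was 486 to 578 in control, 439 to 506 in KO and 462 to 533 in +/+. It was lower in Kd (301 to 370) and with both losses (372 to 435). Most of it was Mitf (495 ± 50.9 in control, 288 ± 36.2 in Kd and 352 ± 29.8 with both losses). Pmel read 18.3 ± 2.62 in control and 22.9 ± 1.40 with both losses, and S100b, Dct and Foxd3 did not pass the filter. The sum over 4 of 8 epithelial genes was 118 to 136 in control, 112 to 125 in KO and 100 to 122 in Kd. It was 111 to 116 with both losses and 103 to 115 in +/+ cells. The part of these cells in the members' values was not tested.

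For the 6 members whose group means spanned at least 1 log2 unit, the 2 most alike of the tested genes were sought. Symbols ending in Rik, Gm with a number, LOC names and accession-like names were passed over. Likeness was the root mean square difference of log2 profiles over the 15 arrays, each profile centred on its own mean. Mcam was nearest to Cap2 (0.17, where the Mcam profile itself had a root mean square of 0.94) and Dmxl2 (0.22). Cap2, an actin-binding protein gene, went from 207 in control to 474 in KO, 457 in Kd and 1358 with both losses, the same steps as Mcam. Rgs4 was nearest to the growth factor signalling inhibitor gene Spry1 (0.16 against 0.70) and the phosphofructokinase gene Pfkm (0.19). Rgs5 was nearest to the microfibril gene Mfap2 and to Septin3 (0.19 each against 1.08). Septin3 was dim in control (31.5) and read 301 with both losses, and Mfap2 read 175 and 1318. Tbx18 was nearest to Mipol1 and Sh3yl1 (0.15 each against 0.47). Foxs1 had no neighbour as close, with the semaphorin gene Sema7a at 0.33 and the nuclear receptor gene Nr4a1 at 0.35 against its own 0.71. Enpep also stood apart, with Olfml3 (0.36 against 0.93) and D17H6S56E-5 (0.47) nearest. The 12 genes named are all different, and none is another member. With only 2 genes kept per member out of all those searched, this does not show whether members share a profile.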

How the data were processed

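RNA of primary male mouse embryonic fibroblasts was labelled by in vitro transcription and hybridised to 15 arrays, per the labels' protocols. The authors deposited 1 table of linear intensity values for 45037 probe sets, with no record, in the sources used here, of the summarisation and scaling behind it. Probe sets were named from GEO's platform annotation: 34945 had 1 gene symbol, 932 several and 9160 none. Of the first, 34741 had an Entrez identifier found in RefSeq, and 0 symbols changed. Groups came from the sample titles. Each gene was represented by its brightest probe set on average. A gene was tested if it was above the 40th percentile of its array on at least 3 arrays (13382 genes). Differences were fitted on log2(intensity + 16) with limma 3.58.1 in R 4.3.3, over all 15 arrays with 1 coefficient per group, and p-values were adjusted by Benjamini-Hochberg over all genes of a comparison (threshold 0.05). The median standard error over all genes was 0.09 for a difference of 2 groups and 0.12 for the interaction, a precision set by the number of arrays. The fit was tested on simulated data. Promoters were placed by RefSeq starts (GRCm38.p6), and a promoter sequence was at hand for 8 of the 10 genes.

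All 10 marker genes were named, with Hdac1 and Hdac2 as a check of the labels. From each other list up to 4 called genes with the largest differences per comparison could be named. For members spanning at least 1 log2 unit between group means, the 2 tested genes with the most alike profiles were named. Clone, model and accession-like symbols (such as Rik, Gm with a number or LOC) were left out of that search. The members and all lists were chosen with earlier results of these data known. Alternatives were quantile normalization, median centring, a pseudocount of 1, no filter, the 60th percentile as filter, probe sets averaged per gene, no _x_at and _s_at probe sets, eBayes with trend and robust, array weights, a replicate block, a fit of the compared groups only, and each array left out in turn.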

Additional observations from a re-analysis of the deposited data

Results flagged for a closer look

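For 6 of the 8 tested marker genes, limma's interaction term passed the threshold. The difference between tamoxifen and ethanol in floxed cells thus depended on whether the micro-RNA was directed against Hdac2 or scrambled. Tamoxifen and Hdac1 deletion went together in these cells, and their separate shares were not tested. The interaction (log2) was 2.86 for Rgs5, 0.82 for Rgs4 and 0.69 for Mcam, and -1.79 for Foxs1, -1.22 for Tbx18 and -0.87 for Cspg4. Rgs5 passed the threshold upwards in neither single loss, and Cspg4 and Tbx18 fell against control in cells with both losses and in neither single loss. That fall of Tbx18 rests on 1 of 2 probe sets. With the Rgs5 probe sets averaged, the Rgs5 value was 1.72. Over all genes 43.0% passed the same test.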

How the results depend on the processing

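Of 1272 values of single genes recomputed under an alternative, 1201 kept their direction and their side of the threshold, 43 lost a call, 7 gained one and 21 changed sign. All 21 belonged to differences that had not passed the threshold. Quantile normalization gave Rgs5 -0.013 in KO and -0.063 in +/+ against control, Pdgfrb -0.066 in +/+, Enpep -0.17 for both minus KO and Foxs1 -0.0024 for both minus Kd. Median centring gave Enpep -0.082, Rgs5 -0.020 and Pdgfrb -0.030 for the same differences, and array weights Enpep -0.19 for both minus KO. The mean of probe sets gave Tbx18 0.091 in Kd and -0.14 for KO minus +/+, and Rgs5 -0.040 in +/+. Leaving out 1 array moved Tbx18 in Kd between -0.20 and 0.12, Cspg4 for KO minus +/+ between -0.065 and 0.038, Enpep for both minus KO between -0.27 and 0.22 and the Enpep interaction between -0.043 and 0.44.

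The number of members called was 5 for +/+ minus control, and 2 after quantile normalization, 3 after median centring, 3 with a pseudocount of 1, 3 without the filter and 2 to 4 when 1 array was left out. For the other comparisons it stayed within 1.5 times of its value under every alternative run. With 1 array left out it was 5 to 7 in KO and 2 to 3 in Kd, 8 for both minus control, 7 for both minus KO and for both minus Kd, 3 for KO minus +/+, 7 to 8 for both minus +/+ and 6 for the interaction. Where 1 array was left out, a group of 2 remained in the pooled fit.

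Arrays with the same replicate number did not deviate together (30 pairs, correlations -0.16 to 0.14, median -0.01), so the numbers were not taken as pairs. With the replicate number as a block, 3007 genes passed for KO minus control in place of 3240, Rgs5 in Kd was no longer called (adjusted p = 0.0613), and no other member's call changed. Over all genes, array weights gave 1282 calls for KO minus control against 3240, 2815 for Kd minus control against 1417, and 1601 for KO minus +/+ against 3227. The cause was not tested. After median centring the split of higher and lower genes was 2012 and 1442 for KO, 4695 and 4170 for both and 2341 and 1526 for +/+ against control, 4206 and 3907 for both minus KO, 4337 and 4201 for both minus Kd, 4327 and 4254 for both minus +/+, and 3168 and 3320 for the interaction. Without the third KO array it was 1752 and 937 for KO minus control. Signal over background limits Rgs5 outside the both group, and Kcnj8 and Abcc9 throughout.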
